A study of Homo sapiens with 24 samples.

Results

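Keratin-associated proteins, the products of the KRTAP genes, form the matrix of the hair shaft, and their genes were examined here for H4K20me3, a histone mark of silent heterochromatin in which lysine 20 of histone H4 carries 3 methyl groups. All protein-coding RefSeq genes on hg38 whose symbol begins with KRTAP were taken, which gave 94 of 19866 coding genes. They lay in 5 stretches: 34 genes on chromosome 17 (40993430 to 41315710), 33 and 16 genes on chromosome 21 (30281309 to 31038476 and 44538981 to 44698044), and 6 and 5 genes on chromosome 11 (1584342 to 1697755 and 71527267 to 71582875). No symbol beginning with KRTAP lay on chromosome 2, where the genes with KRTAP28 among their older names are listed as SCYGR genes.

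Keratin-associated proteins fill the space between the keratin filaments of the hair cortex and cuticle and are cross-linked to the hair keratins by disulfide bonds. The high-sulfur families (KRTAP1, KRTAP2, KRTAP3) and the ultrahigh-sulfur families (KRTAP4, KRTAP5, KRTAP9, KRTAP17) are rich in cysteine, and a further class on chromosome 21 (KRTAP6, KRTAP8, KRTAP19 and relatives) is rich in glycine and tyrosine. The genes are short, lie in dense clusters and are transcribed late in the differentiation of hair-forming cells, not in the squamous epithelium from which the cells studied here derive.

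The study mapped the mark by CUT&RUN, an assay in which an antibody guides a nuclease to the marked histones so that the DNA around them is cut free and sequenced. The cells were HN-SCC-151, a squamous carcinoma line of the head and neck that is HPV-negative and is labelled wild type. In the inhibitor arm, 3 libraries of cells given 2.5 µM A-196, an inhibitor of the H4K20 methyltransferases SUV420H1 (KMT5B) and SUV420H2 (KMT5C), were compared with 3 libraries of DMSO-treated cells. The siRNA arm set 4 libraries made after transfer of SUV420H1 siRNAs (siSUV420H1) against 4 made with control siRNAs (siNC). Both treatments ran for 6 days, and each reaction took 500000 cells. All 14 libraries come from 1 cell line. The design text gives 3 dishes per condition, so some of the 4 libraries of an siRNA group may share a dish, and the spread behind the p-values is that between libraries.

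A gene counted as marked if broad peaks of a library lay over 200 bp or more of its window, which is its annotated span with 2 kb added on each side. Lost genes were those with the mark in all control libraries of the arm and without it in all treated ones, and gained genes were the reverse. KRTAP windows measured 4.21 to 5.64 kb, against a median of 28.5 kb over all coding genes, while the narrowest peak measured 5 kb, so a single peak can cover a whole window. The covered length of a window therefore has a ceiling near 5 kb, and genes that lie close together share peaks.

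Sequences upstream of 4 start sites show what the promoters of the family look like, each being the 250 bases before the annotated start, 5′ to 3′ on the gene's strand, from RefSeq GRCh38.p14, with the motif TATAAA in capitals. KRTAP2-3 (chr17:41060115-41060364, minus strand) lost the mark with A-196 and kept it with siSUV420H1, KRTAP1-5 (chr17:41027209-41027458, minus strand) lost it in both arms, KRTAP4-6 (chr17:41140545-41140794, minus strand) carried it in every library but A-196 replicate 2, and KRTAP13-1 (chr21:30395781-30396030, plus strand) carried it in none. For KRTAP2-3 and KRTAP4-6 the peaks of the marked libraries covered the printed bases. For KRTAP1-5 no peak of any library reached its printed bases or its start site: in the DMSO libraries the peaks lay only in the flank downstream of the gene, and in 2 siNC libraries they also covered 0.975 kb of the gene itself.
KRTAP2-3: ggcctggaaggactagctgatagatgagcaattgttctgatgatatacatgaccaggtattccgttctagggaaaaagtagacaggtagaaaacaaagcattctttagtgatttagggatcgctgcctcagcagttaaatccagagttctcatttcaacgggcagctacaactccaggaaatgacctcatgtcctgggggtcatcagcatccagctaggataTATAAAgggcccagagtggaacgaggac
KRTAP1-5: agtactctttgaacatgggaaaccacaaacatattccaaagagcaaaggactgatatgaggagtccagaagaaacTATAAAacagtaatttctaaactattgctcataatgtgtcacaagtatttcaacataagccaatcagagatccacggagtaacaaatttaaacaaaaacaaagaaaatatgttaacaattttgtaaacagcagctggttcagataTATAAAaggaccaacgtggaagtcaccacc
KRTAP4-6: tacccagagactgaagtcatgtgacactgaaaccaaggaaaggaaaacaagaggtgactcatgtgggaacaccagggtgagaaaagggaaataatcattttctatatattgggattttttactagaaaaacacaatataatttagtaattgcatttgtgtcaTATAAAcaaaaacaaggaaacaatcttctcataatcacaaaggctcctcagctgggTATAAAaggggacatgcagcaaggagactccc
KRTAP13-1: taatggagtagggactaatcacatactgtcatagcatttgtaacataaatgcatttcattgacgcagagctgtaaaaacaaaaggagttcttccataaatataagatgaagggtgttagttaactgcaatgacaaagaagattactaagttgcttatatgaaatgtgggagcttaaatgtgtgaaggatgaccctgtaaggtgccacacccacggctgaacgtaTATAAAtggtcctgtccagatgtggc
At least 1 TATAAA was present in each of the 4, whether or not the gene carried the mark. Over the whole 300-base promoters, from 250 bases before to 50 after the start, TATAAA stood on the gene's strand in 76.2% of the 80 KRTAP genes with a promoter sequence and in 6.91% of 15843 coding genes. Counted on either strand, the shares were 80% and 9.63%. KRTAP promoters also had a lower median GC content, at 42.7% against 62.7% over coding genes, and a lower median count of CG dinucleotides, at 2 against 22. Within the chromosome 17 cluster the motif did not follow the mark: it was on the gene's strand in 82.4% of the 17 promoters of genes marked in every DMSO library and in 83.3% of the 6 promoters of genes marked in no DMSO library. Their median GC contents were 40.7% and 41.2%. On chromosome 21 the median GC content was 38.5% in the larger cluster (30 promoters) and 55.3% in the KRTAP10 and KRTAP12 cluster (15 promoters). Some promoters are near copies: the 250 bases upstream of KRTAP4-8 were 92.5% identical to those of KRTAP4-11 and 90.1% to those of KRTAP4-7, and KRTAP9-2 and KRTAP9-9 shared 91.4%. How reads from such copies were assigned is not given in the sources used here, so their marks are uncertain.

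Across the 14 libraries, H4K20me3 on KRTAP genes was a feature of chromosome 17. Of the 94 genes, 63 were marked in no library, close to the share of all coding genes (67% against 66.9%), and only KRTAP2-1, a high-sulfur gene, was marked in all 14 libraries, against 3.87% of all coding genes. On chromosome 17, 6 of the 34 genes were marked nowhere (KRTAP1-4, KRTAP4-3, KRTAP4-1, KRTAP9-3, KRTAP9-8 and KRTAP9-4). Elsewhere, 32 of 33 and 15 of 16 genes in the chromosome 21 clusters and 5 of 6 and 5 of 5 in the chromosome 11 clusters were marked nowhere. The number of marked KRTAP genes was 4, 5 and 5 with A-196, against 23, 22 and 20 with DMSO. It was 10, 8, 9 and 11 with siSUV420H1, against 16, 15, 15 and 15 with siNC. Treated and control libraries did not overlap in either arm. Over all coding genes the number marked averaged 2710 with A-196 and 2350 with DMSO, with overlapping groups, and 2353 with siSUV420H1 and 3185 with siNC, with separate groups. The differences were 15.3% and -26.1% over all coding genes, and -78.5% and -37.7% over KRTAP genes. The 15.3% rested on A-196 replicate 2, with 3684 marked coding genes. The other A-196 libraries had 2138 and 2308, against 2306 to 2385 with DMSO.

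**Figure D1:**
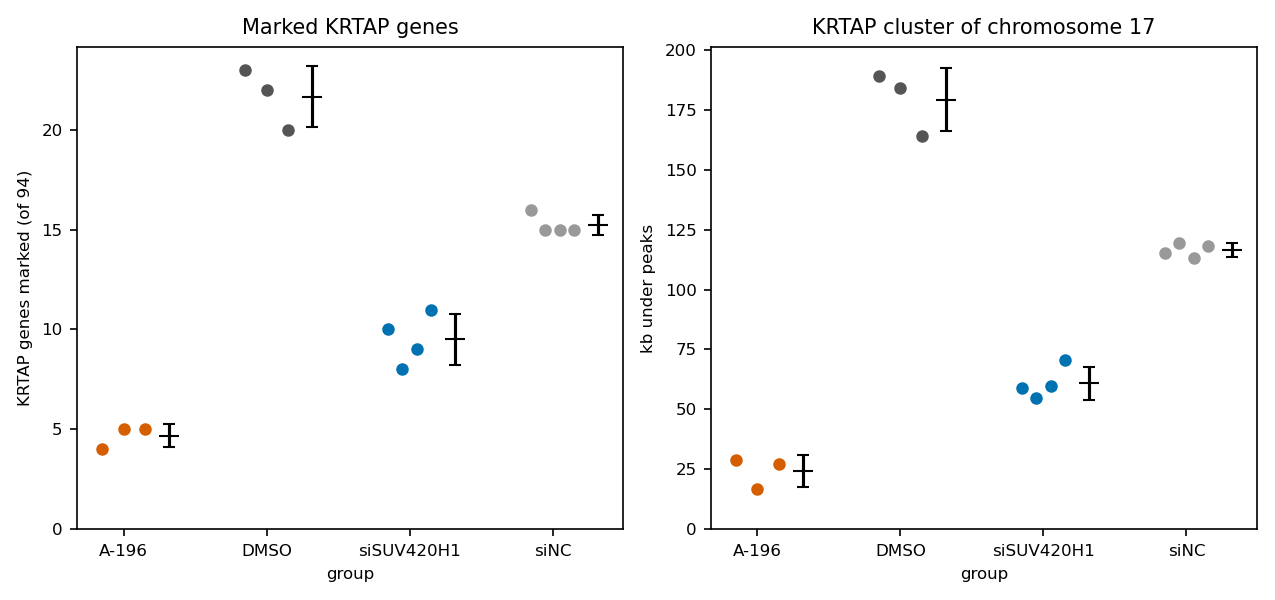
Marked KRTAP genes (left, of 94) and kb under peaks in the KRTAP cluster of chromosome 17 (right) in each of the 14 libraries, by group; points are libraries and the bars beside them give the mean ± SD. A-196 libraries hold 4 to 5 marked genes against 20 to 23 with DMSO, and siSUV420H1 libraries 8 to 11 against 15 to 16 with siNC.

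These counts stand beside a loss of covered genome in both arms. Peaks covered 79.6 to 107 Mb with A-196 against 145 to 153 Mb with DMSO, and 118 to 130 Mb with siSUV420H1 against 183 to 193 Mb with siNC, which are differences of -34.6% and -33.7% between group means. A-196 libraries held 8505 to 13464 peaks against 8430 to 8921 with DMSO, and siSUV420H1 libraries 9325 to 10203 against 13818 to 14675 with siNC. The A-196 libraries stood apart from one another, their pairwise Jaccard index averaging 0.315, while pairs of DMSO libraries averaged 0.750, pairs of siSUV420H1 libraries 0.689 and pairs of siNC libraries 0.772 (shared over joint covered bases), and A-196 replicate 2 had the most marked coding genes (3684, against 2138 and 2308 in the other A-196 libraries). Read depth was unknown, so a domain without a peak may hold signal under the calling threshold. KMT5B and KMT5C carried no peak in any library, and their RNA and protein were not analysed here, so the lists do not check the knockdown. Of 8 squamous epithelium markers TP63 and DSG3 had peaks in any library, and KRT5, KRT14, KRT6A, SFN, CDH1 and PERP had none. Of the 5 hair cortex and cuticle markers KRT31 and KRT86 had peaks, and KRT35, KRT85 and HOXC13 had none.

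The chromosome 17 cluster had far fewer bases under peaks with A-196 than with DMSO. Over its 326 kb, counted from 2 kb before the first to 2 kb after the last KRTAP gene (40991430 to 41317710), peaks covered 29, 16.6 and 27 kb in the A-196 libraries, against 189.3, 184 and 164 kb in the DMSO libraries. The means were 24.2 ± 6.67 kb and 179 ± 13.2 kb (SD, n = 3 each), a difference of -86.5%, and every A-196 library lay below every DMSO library. Over the merged windows of all 94 genes, the means were 13.2 ± 2.52 kb with A-196 and 71.8 ± 4.86 kb with DMSO, a difference of -81.6%. On chromosome 17 as a whole, the covered length differed by -45.7%. The few A-196 peaks also differed between libraries: no base of the cluster lay under peaks in all 3 A-196 libraries, whereas 141 kb in 12 pieces did so in all 3 DMSO libraries. Each A-196 library had 4 peaks reaching the cluster, of at most 6 to 9 kb, against 10 to 14 peaks of up to 111 or 112 kb in the DMSO libraries. The widest peak of each DMSO library began just before KRTAP17-1 and ran on over the hair keratin genes next to the cluster.

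**Figure D2:**
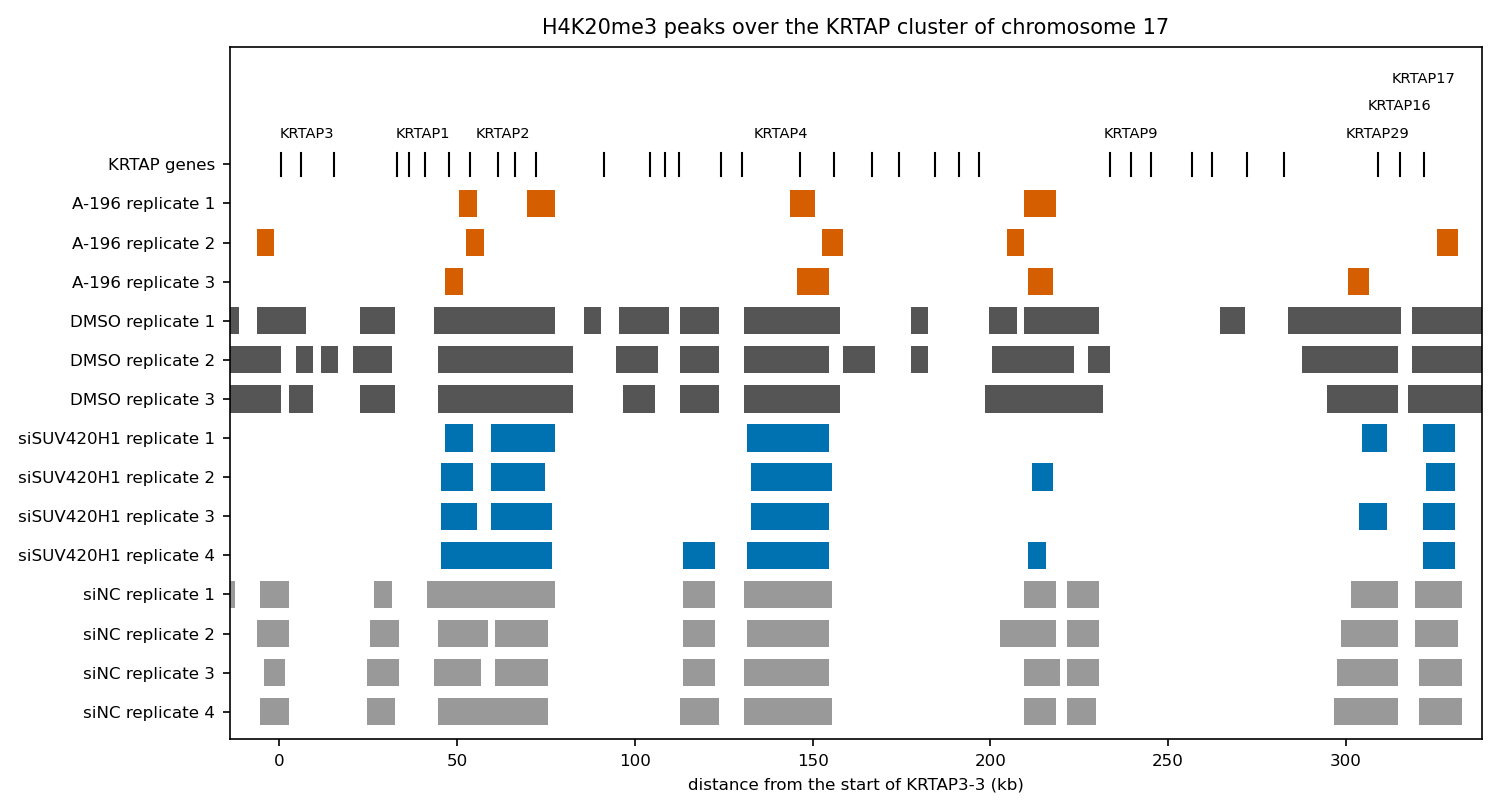
Map of H4K20me3 peaks (bars) in each of the 14 libraries over the KRTAP cluster of chromosome 17, as distance in kb from the start of KRTAP3-3, with the 34 genes as ticks above and family names over them. DMSO libraries have 10 to 14 peaks over the cluster and A-196 libraries 4, while siSUV420H1 libraries keep the domains over KRTAP2 and within KRTAP4.

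Of the 17 KRTAP genes marked in every DMSO library, 11 were lost with A-196, none was gained, and KRTAP2-1 alone was marked in every A-196 library. Among all coding genes, 9.86% were marked in every DMSO library, and of those 18% were lost and 45.2% were marked in every A-196 library. In relation to all coding genes, lost genes made up 1.78% and gained genes 0.81%. Of the 981 coding genes whose window was no longer than the longest KRTAP window, 4.08% were marked in every DMSO library. Of those 40 genes, KRTAP genes included, 47.5% were lost and 17.5% carried it in all A-196 libraries. The covered length of every A-196 library lay below that of every DMSO library in 14 of the 30 KRTAP genes that had the mark in at least 1 of the 6 libraries, against 19.5% of 5613 coding genes, and above it in none, against 3.87%. Those 30 passed the filter mainly through their DMSO libraries. This favours lower calls and a negative median and works against higher calls, so the counts of 14 and none are a description too. Their median difference, given as a description, was -33.4 points of the window covered, against 1.07 points over the 5613 genes. The 5613 genes include those marked in A-196 replicate 2 alone. Without that library 4011 coding genes were tested, of which 1199 were lower and 333 higher, KRTAP5-6 being among the higher ones. The 11 lost genes lay in 8 merged regions, so they were not 11 separate losses.

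No coding gene passed the exact two-sided permutation test after Benjamini-Hochberg adjustment over the 5613 genes (n = 3 against 3, 0 genes at an unadjusted p under 0.05). The smallest p this design allows is 0.1, which all 14 KRTAP genes with separate groups reached in that exact test, each with an adjusted p of 0.428.

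The families differed in where the mark lay. Among the high-sulfur genes at the start of the cluster, KRTAP3-2 had no covered base in any A-196 library and 3.81, 3.91 and 4.71 kb in the DMSO libraries. KRTAP3-3 had 0, 0.571 and 0 kb with A-196, against 4.74, 2.57 and 2.74 kb with DMSO, so 1 A-196 library kept a mark on it and the groups did not overlap. KRTAP1-5 was covered over 0 kb in each A-196 library and over 1.98, 0.975 and 1.98 kb in the DMSO libraries. Over the stretch from KRTAP3-3 to KRTAP1-3 peaks covered 0.190 ± 0.330 kb with A-196 and 20.9 ± 2.31 kb with DMSO (SD, n = 3 each). KRTAP1-4 and KRTAP1-3, in the same stretch, carried no peak in either group.

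KRTAP1-1 and the 4 KRTAP2 genes lay under 1 peak in each DMSO library, which covered the whole stretch of 29.3 kb from KRTAP1-1 to KRTAP2-4. With A-196, 9.88, 5 and 5 kb of that stretch remained covered, at places that differed between the libraries. KRTAP2-3 had 0 kb in each A-196 library and 4.875 kb, its whole window, in each DMSO library, and its neighbour KRTAP2-2 was lost in the same way. KRTAP2-1 had 4.46, 3.32 and 0.460 kb with A-196, against 4.78 kb in each DMSO library, so it stayed marked in all 3 A-196 libraries over a shorter length. That difference of -2.03 kb was -0.888 kb without A-196 replicate 3 and -0.186 kb after scaling to covered length, where the groups overlapped. In A-196 replicate 3 the 0.460 kb lay in a flank of KRTAP2-1, outside the gene itself. KRTAP1-1 was marked in A-196 replicate 3 alone, with 0, 0 and 3.45 kb against 4.91 kb in each DMSO library, and its groups too overlapped after scaling. KRTAP2-4 had 4.76, 0 and 0 kb with A-196 and 4.76 kb in each DMSO library, and here the groups overlapped because 1 A-196 library was fully covered.

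Among the 12 KRTAP4 genes, the ultrahigh-sulfur members that fill the middle of the cluster, 1, 1 and 2 were marked in the A-196 libraries, against 9, 9 and 6 in the DMSO libraries. KRTAP4-8 had 0 kb in each A-196 library and 5.16, 5.02 and 4.02 kb in the DMSO libraries. KRTAP4-9 had 0 kb with A-196 and 2.49 kb in each DMSO library, and KRTAP4-11, under the same peaks, had 0 kb against 1.82 kb in each. Those peaks reached only the flank of KRTAP4-11, whose difference was 0 kb without flanks. KRTAP4-12 went without a covered base in the A-196 libraries, against 2.18 kb in each DMSO library. Without flanks its difference was -0.182 kb, a length under the 200 bp that mark a gene. The exceptions were the neighbours KRTAP4-6 and KRTAP4-5. KRTAP4-6 had 5.11, 0 and 3.54 kb with A-196, against 5.11 kb in each DMSO library. KRTAP4-5 had 0, 4.90 and 1.08 kb with A-196, against 4.08, 1.08 and 4.08 kb with DMSO, so for both genes the groups overlapped. Peaks over the stretch from KRTAP4-7 to KRTAP4-1 covered 7.33 ± 1.53 kb with A-196 and 55.6 ± 7.54 kb with DMSO (SD, n = 3 each).

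The KRTAP9 genes, also of the ultrahigh-sulfur class, carried little of the mark even in control cells. No KRTAP9 gene was marked in every library of any group, and none was marked in an A-196 library, against 3, 1 and 2 of 8 in the DMSO libraries. The broad domain in this part of the cluster lay between KRTAP9-1 and KRTAP9-2, in 36 kb (41190640 to 41226647) that hold no coding gene of the RefSeq table. There, peaks covered 9, 5 and 7 kb with A-196, against 29, 28.6 and 33 kb with DMSO. It was a stretch in which all 3 A-196 libraries had a peak, though no base was common to them.

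At the far end of the cluster almost nothing lay under peaks with A-196. KRTAP29-1 had 0, 0 and 0.175 kb with A-196, the last under the 200 bp that mark a gene, against 5.03 kb in each DMSO library. It no longer counted as lost where a single covered base sufficed. KRTAP16-1, under the same DMSO peaks, had 0 kb in each A-196 library and 3.30, 2.301 and 2.61 kb with DMSO. KRTAP17-1, the ultrahigh-sulfur gene that ends the cluster, had 0 kb in each A-196 library and 4.80 kb, its whole window, in each DMSO library. The stretch from KRTAP29-1 to KRTAP17-1 was covered over 0.0583 ± 0.101 kb with A-196 and 14.6 ± 0.577 kb with DMSO (SD, n = 3 each).

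**Figure D3:**
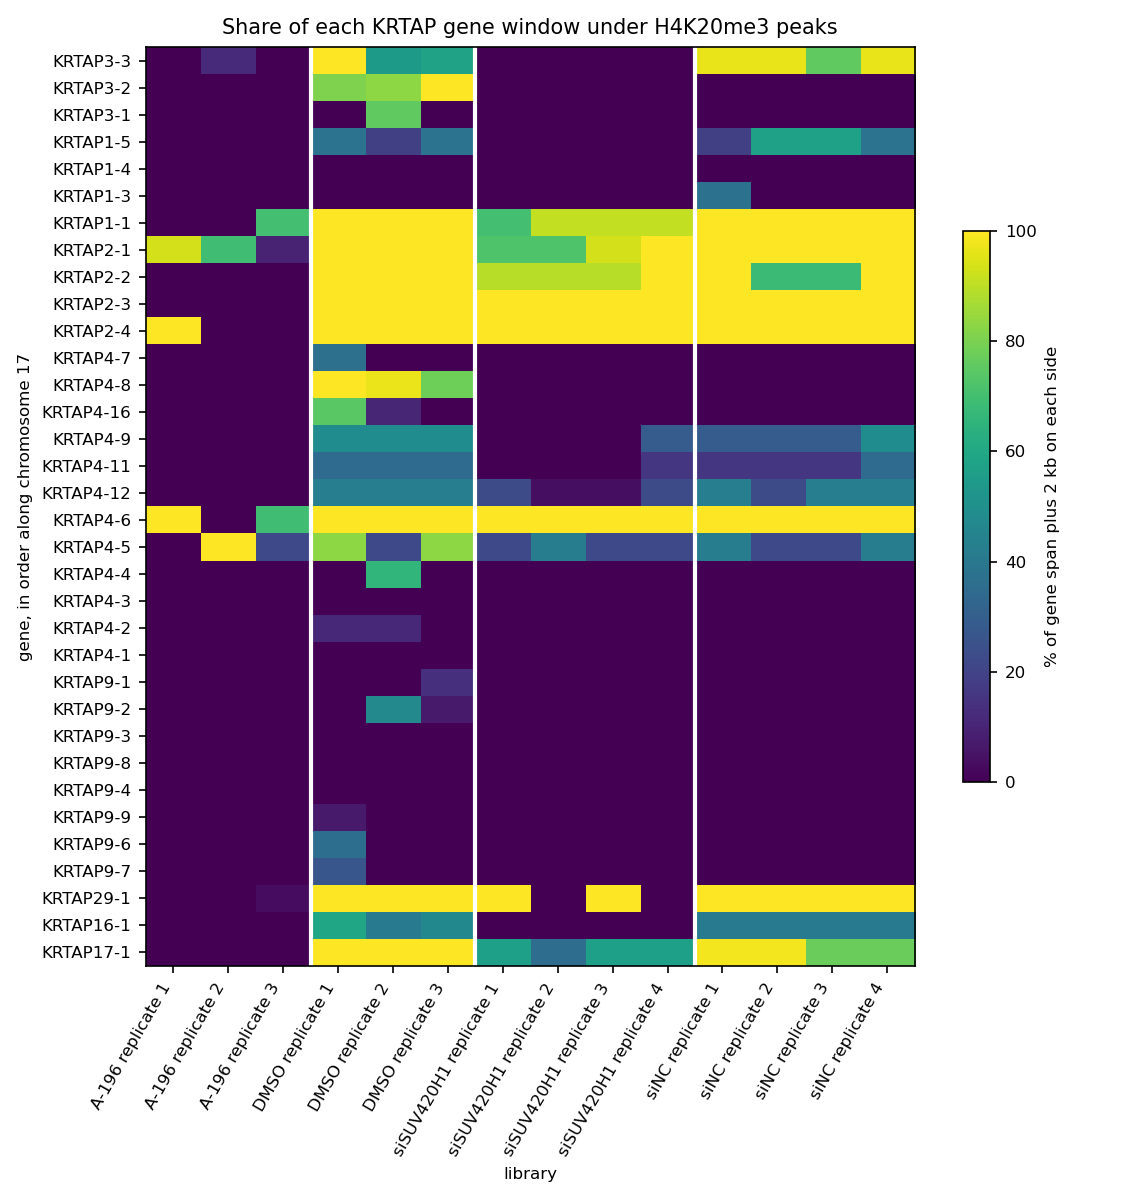
Share of each gene window (span plus 2 kb on each side) under H4K20me3 peaks, in %, for the 34 KRTAP genes of chromosome 17 in map order (rows) and the 14 libraries (columns, white lines between groups). KRTAP2-3 is fully covered in all DMSO, siSUV420H1 and siNC libraries and at 0 in all A-196 libraries, and KRTAP3-2 and KRTAP4-8 are covered with DMSO alone.

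With siSUV420H1, peaks at both ends of the cluster and between KRTAP9-1 and KRTAP9-2 covered less than with siNC, or nothing. Those over KRTAP2 and within KRTAP4 were still present. Between KRTAP9-1 and KRTAP9-2 the mean was 2.75 kb with siSUV420H1 and 19.75 kb with siNC. That was a difference of -86.1%, with no overlap between groups, so the lower coverage was not limited to the ends. Peaks covered 58.7, 54.7, 59.7 and 70.7 kb of the cluster in the siSUV420H1 libraries, against 115, 119, 113 and 118 kb in the siNC libraries. The means were 61.0 ± 6.85 kb and 117 ± 2.75 kb (SD, n = 4 each), a difference of -47.7%, with no overlap between groups. The covered length of chromosome 17 as a whole differed by -42.2%. Over the merged KRTAP windows the means were 34.9 ± 2.73 kb with siSUV420H1 and 53.3 ± 2.31 kb with siNC, a difference of -34.5%, close to the -33.7% over the whole genome. Once each library was scaled to its covered length, the difference over these windows was -0.50 kb in place of -18.4 kb. All 4 siSUV420H1 libraries shared 46.7 kb of covered cluster in 4 pieces, against 101 kb in 10 pieces shared by the 4 siNC libraries.

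Of the 15 KRTAP genes marked in every siNC library, 3 were lost with siSUV420H1 (KRTAP3-3, KRTAP1-5 and KRTAP16-1) and 8 were marked in every siSUV420H1 library. Among all coding genes, 13.9% were marked in every siNC library, and of those 21.5% were lost and 64.1% were marked in every siSUV420H1 library. All coding genes marked in every siSUV420H1 library made up 9.87%. Among the 981 genes with windows no longer than the longest KRTAP window, 4.89% were marked in every siNC library, and of those 48, KRTAP genes included, 33.3% were lost and 45.8% were marked in every siSUV420H1 library. Lost genes made up 2.98% of all coding genes and gained genes 0.342%, and no KRTAP gene was gained. Without siSUV420H1 replicate 4 the lost KRTAP genes numbered 5, KRTAP4-9 and KRTAP4-11 being added. The groups were separate, with siSUV420H1 lower, in 5 of the 16 KRTAP genes marked in the arm, against 33.7% of 3959 coding genes, and in no KRTAP gene was siSUV420H1 higher, against 10.4%. The median difference of the 16 genes was -16.0 points of the window, against -1.65 points over the 3959 genes. All 16 had the mark in at least 1 siNC library and none through siSUV420H1 alone. The choice of the 16 therefore favours lower calls and a negative median and works against higher calls. Windows full in every siNC library, such as that of KRTAP2-3, could not be higher. The counts and the median are given as a description. After scaling to covered length, 3 KRTAP genes were lower and 6 higher in place of 5 and 0. Over all coding genes tested, 936 were lower and 1245 higher in place of 1336 and 413. Scaling raises siSUV420H1 values and lowers siNC values. KRTAP2-3, KRTAP2-4 and KRTAP4-6, fully covered in every library of the arm, therefore counted as higher by construction.

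No coding gene passed the exact two-sided permutation test after adjustment over the 3959 genes (n = 4 against 4), although 1749 genes, 44.2%, had an unadjusted p under 0.05. The 5 KRTAP genes with separate groups were among them, each with the smallest possible exact p of 0.0286 and an adjusted p of 0.0647.

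The lost genes lay at the 2 ends of the cluster. No KRTAP9 gene was marked in any siNC library, so that part of the cluster could not show a lost gene. KRTAP3-3 had 0 kb in each siSUV420H1 library and 4.57, 4.57, 3.57 and 4.57 kb in the siNC libraries. KRTAP1-5 had 0 kb in each siSUV420H1 library, against 0.975, 2.98, 2.98 and 1.98 kb with siNC. KRTAP16-1 had 0 kb in each siSUV420H1 library, against 2.301 kb in each siNC library. KRTAP17-1 stayed marked over a shorter length, at 2.71, 1.71, 2.71 and 2.71 kb with siSUV420H1, against 4.71, 4.71, 3.71 and 3.71 kb with siNC. KRTAP29-1 split the siSUV420H1 libraries, with 5.03, 0, 5.03 and 0 kb, against 5.03 kb in each siNC library, so the groups overlapped.

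The genes marked in every siSUV420H1 library were KRTAP1-1, KRTAP2-1, KRTAP2-2, KRTAP2-3, KRTAP2-4, KRTAP4-6, KRTAP4-5 and KRTAP17-1, in 3 merged regions. KRTAP2-3 was covered over its whole window of 4.875 kb in all 8 libraries of the arm, as was KRTAP2-4 over 4.76 kb and KRTAP4-6 over 5.11 kb. KRTAP2-2 had 4.23, 4.23, 4.23 and 4.73 kb with siSUV420H1, against 4.73, 3.23, 3.23 and 4.73 kb with siNC. KRTAP2-1 had 3.46, 3.46, 4.46 and 4.78 kb with siSUV420H1, against 4.78 kb in each siNC library, and 1 siSUV420H1 library equalled the controls. KRTAP1-1, at the edge of the domain, had 3.45, 4.45, 4.45 and 4.45 kb with siSUV420H1, against 4.91 kb in each siNC library, and this difference of -0.710 kb became 1.18 kb after scaling to covered length. The stretch from KRTAP1-1 to KRTAP2-4 was covered over 25.1 ± 2.63 kb with siSUV420H1 and 27.8 ± 1.91 kb with siNC (SD, n = 4 each), and the groups overlapped.

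Of the 12 KRTAP4 genes, 3, 2, 2 and 5 were marked in the siSUV420H1 libraries, against 5 in each siNC library. KRTAP4-9 had 0, 0, 0 and 1.49 kb with siSUV420H1, against 1.49, 1.49, 1.49 and 2.49 kb with siNC. KRTAP4-12 had 1.18, 0.182, 0.182 and 1.18 kb with siSUV420H1, against 2.18, 1.18, 2.18 and 2.18 kb with siNC. In both genes the groups touched or overlapped. The stretch from KRTAP4-7 to KRTAP4-1 was covered over 25 ± 4.69 kb with siSUV420H1 and 33.8 ± 1.71 kb with siNC, again with overlap. Between KRTAP9-1 and KRTAP9-2, peaks covered 0, 6, 0 and 5 kb with siSUV420H1, against 18, 25, 19 and 17 kb with siNC, and no KRTAP9 gene was marked in any library of the arm.

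**Figure D4:**
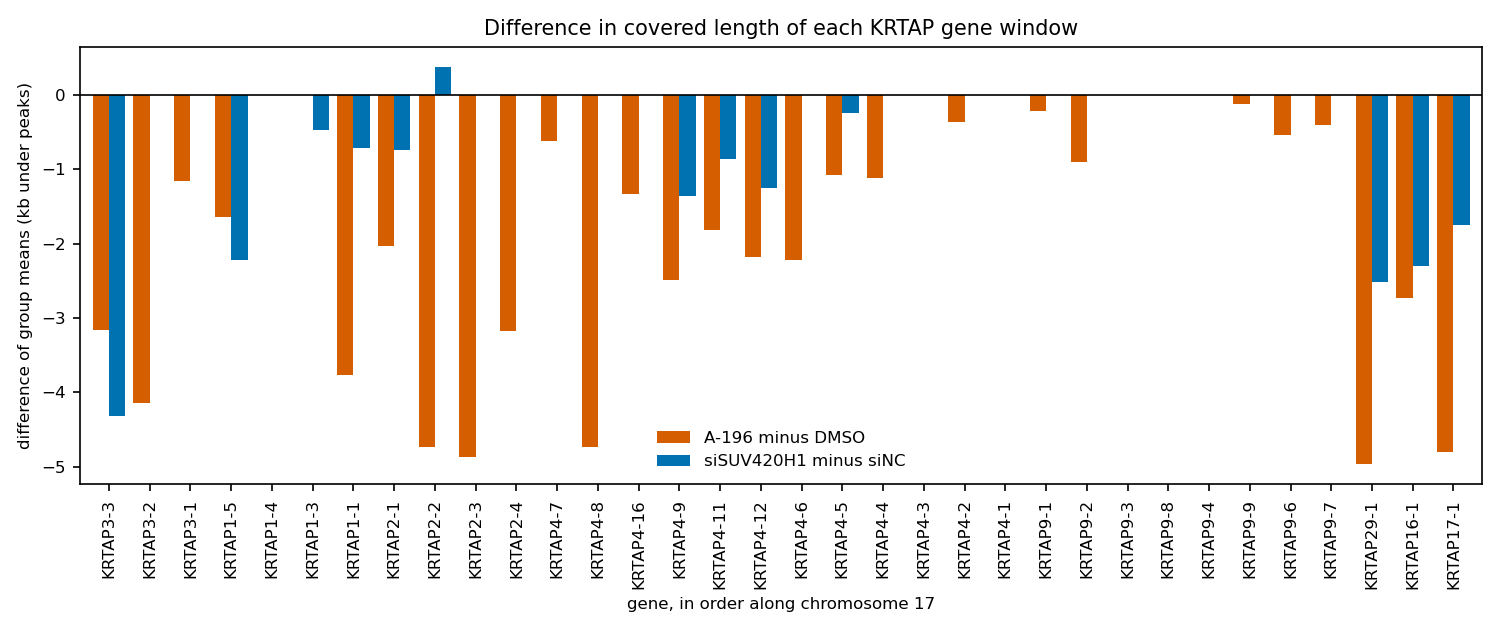
Difference of group means in kb under peaks for each KRTAP gene window of chromosome 17 in map order, A-196 minus DMSO (orange) and siSUV420H1 minus siNC (blue). KRTAP2-3 differs by -4.875 kb with A-196 and by 0 kb with siSUV420H1, while KRTAP3-3 and KRTAP1-5 are lower in both arms.

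The arms share no library, and peaks were called against a different IgG library in each, so levels were compared within arms and the difference between the arms was tested as such. No coding gene passed the exact two-sided permutation test of that difference after adjustment over 6575 genes, and 858 genes, 13%, had an unadjusted p under 0.05. KRTAP2-2 was the 1 KRTAP gene among them: its difference was -4.73 kb with A-196 and 0.374 kb with siSUV420H1, and the 2 differed by -5.11 kb (exact permutation p = 0.024, adjusted p = 0.242). For KRTAP2-3 the differences were -4.875 kb and 0 kb (exact permutation p = 0.1, adjusted p = 0.458). Its covered length was equal in every library of the siRNA arm, so 0.1 was the smallest p that test allowed for it. KRTAP1-5 and KRTAP16-1 were lost in both arms, although the start site of neither lay under a peak in any library. KRTAP3-2 and KRTAP4-8, lost with A-196, were marked in no siNC library, so the siRNA arm could not show a loss for them.

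At the start sites themselves the counts were smaller. Of 80 genes with a strand in the promoter table, the start site lay under a peak in every DMSO library in 11, and 7 of these had no peak there in any A-196 library (KRTAP3-2, KRTAP2-2, KRTAP2-3, KRTAP4-8, KRTAP4-12, KRTAP29-1 and KRTAP17-1). None of the 11 kept it in all A-196 libraries. Of the start sites of 15843 coding genes, 3.29% were covered in every DMSO library, and of those 36.9% had no peak in any A-196 library and 31.1% kept it in all 3. In the siRNA arm, 9 start sites were covered in every siNC library, 1 of them, that of KRTAP3-3, in no siSUV420H1 library, and 6 in every siSUV420H1 library. Over the same coding genes 2.97% were covered in every siNC library, and of those 27.8% in no siSUV420H1 library and 57.1% in all 4. Covered start sites numbered 2.67 ± 0.577 with A-196 and 13.3 ± 1.15 with DMSO (SD, n = 3 each), and 7.25 ± 0.957 with siSUV420H1 and 9.75 ± 0.5 with siNC (SD, n = 4 each).

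The clusters of chromosomes 11 and 21 had almost no H4K20me3 peaks, and most of the few lay in A-196 libraries. Over the first chromosome 11 cluster, peaks covered 6.755, 7 and 2.755 kb of 117 kb with A-196, against 0, 0 and 0.755 kb with DMSO, so here every A-196 library lay above every DMSO library, and no siSUV420H1 or siNC library had a peak. KRTAP5-6, an ultrahigh-sulfur gene at the end of the first chromosome 11 cluster, had 1.755, 0 and 2.755 kb with A-196, against 0, 0 and 0.755 kb with DMSO, and its groups overlapped. Without A-196 replicate 2, every A-196 library lay above every DMSO library there. KRTAP15-1 (0.726 kb) and KRTAP10-6 (2.50 kb) were marked in A-196 replicate 2, the library with the most peaks, and in no other library. The first chromosome 21 cluster spans 761 kb with its flanks, and DMSO and siNC libraries had no peak in it. Single peaks of 5 kb lay there in siSUV420H1 replicates 1 and 2 and reached no gene window. The 5 genes from KRTAP5-7 to KRTAP5-11 on chromosome 11 had no peak nearby in any library. TSPEAR, whose span holds the KRTAP10 and KRTAP12 genes (chromosome 21, 44497893 to 44711572), had 6 kb in A-196 replicate 2 and none elsewhere. The flanking genes DUSP8, IFITM10, NADSYN1, DEFB108B, CLDN8 and LRRC3 had no peak in any library. TIAM1 had 5 kb in A-196 replicates 1 and 2 and UBE2G2 0.421 kb in replicate 2. SCYGR1, which has a KRTAP28 name among its synonyms, had 4.27 kb in each siNC library, and SCYGR4 had 0.815 to 1.82 kb there. Both were at 0 kb in all other libraries.

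The keratin genes beside the chromosome 17 cluster were also covered over shorter lengths in treated cells. KRT40, the hair keratin before KRTAP3-3, had 0, 2.13 and 0 kb with A-196, against 8.42, 13.4 and 13.4 kb with DMSO, and 0 kb in each siSUV420H1 library, against 6.42, 2.13, 0.135 and 1.13 kb with siNC. KRT33A, on the other side, had 0, 2.91 and 3.91 kb with A-196, against 8.74 kb in each DMSO library. Over the stretch from KRT33A to KRT36, type I hair keratins that make the filaments of the hair cortex, peaks covered 9.61 ± 2.13 kb with A-196 and 94.6 ± 9.24 kb with DMSO (SD, n = 3 each). With siSUV420H1 they covered 18.7 ± 3.31 kb, against 56.2 ± 1.71 kb with siNC (SD, n = 4 each). KRT34 had 7.82, 0 and 0 kb with A-196, against 10.1 kb in each DMSO library, and these groups were separate. In the siRNA arm it stayed covered and the groups overlapped, with 10.1, 8.82, 10.1 and 9.82 kb with siSUV420H1, against 10.1 kb in each siNC library. KRT35 and KRT36 were at 0 kb in all 14 libraries, and KRT32, KRT37 and KRT38 in every library of the siRNA arm.

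Among 48 genes that act with keratin-associated proteins in the hair follicle, namely hair and inner root sheath keratins, cross-linking and matrix genes and hair regulators, 3.33 ± 1.15 were marked with A-196 and 15.7 ± 1.15 with DMSO (SD, n = 3 each). Of these, 13 had the mark in all DMSO libraries and 9 of the 13 were lost with A-196, in all 13 the A-196 libraries lay below the DMSO libraries, and none was gained. Over all coding genes, 18% of those with the mark in all DMSO libraries were lost. Groups were separate with A-196 lower in 19.5% of the 5613 genes marked in at least 1 library of the arm. That base is wider than genes with the mark in all DMSO libraries, so this share is not a like comparison for the 13. The 9 lost partner genes lay in 7 merged regions, and those beside the KRTAP cluster shared peaks, so they were not separate losses. KRT31, a hair cortex keratin, had 0 kb in each A-196 library and 7.89 kb in each DMSO library. KRT39, a hair keratin before the KRTAP genes, had 0 kb against 12.5 kb in each DMSO library. TCHH, which encodes trichohyalin of the inner root sheath and lies outside chromosome 17, had 0 kb with A-196 and 9.68, 10.1 and 10.1 kb with DMSO. With siSUV420H1, 4.5 ± 1.29 of the 48 were marked, against 12.2 ± 1.26 with siNC (SD, n = 4 each). Of the 11 marked in every siNC library 5 were lost (KRT31, KRT33B, KRT84, KRT25 and DSG4), 3 were marked in every siSUV420H1 library, and none was gained, against 21.5% lost over all coding genes with the mark in all siNC libraries. These 5 lay in 4 merged regions. By group, type I hair keratins lost 5 of 8 with A-196 and 2 of 5 with siSUV420H1, and type II hair keratins 1 of 1 in each arm. Of the 12 hair regulators, among them HOXC13, MSX2, FOXN1 and LEF1, only LPAR6, a lysophosphatidic acid receptor, was marked in any library.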

How the data were processed

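The 14 deposited H4K20me3 lists, 1 per library, give peak positions in bp and no score, p-value or read count. The build was hg38, and cutadapt 4.4, Bowtie, bedtools 2.30.0 and Picard 2.27.3 were used by the authors, per the submitters' processing notes. The names of the deposited lists say that duplicate reads had been removed and that an IgG library served as background for each call: IgG from DMSO cells for A-196 and DMSO, and IgG of cells whose treatment is unnamed for the siRNA groups. Which peak caller was run, and how, is not given in the sources used here. Peak ends lie on a 1000 bp grid, so smaller shifts are not visible. Depth is unknown, so no interval or floor is given.

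Coordinates are 1-based. RefSeq annotation of GRCh38.p14 gave gene spans, without exons or strand, and 190 coding genes off the primary chromosomes were left out. Strand and start sites came from the RefSeq promoter table, which holds 33 of the 34 chromosome 17 members. Covered bp were counted per window with numpy 2.4.6 and pandas 2.3.3 in Python 3.11.15, and promoter identity with biopython 1.88. For each gene, group means of covered length were set against those of every possible assignment of the libraries (exact permutation test, two-sided); p-values were adjusted by Benjamini and Hochberg over coding genes with a mark in the arm, and the threshold was 0.05. The counting and the test were tested on simulated data. Replicate numbers of the siRNA and inhibitor groups did not pair libraries (correlations of same-numbered deviations from -0.511 to 0.138).

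The members, gene lists and tests were chosen with earlier results of these data known. Values per library are given for up to 6 lost and 6 gained members and 4 others with separate groups each way per comparison, for neighbours and for up to 6 lost partner genes; the remaining named genes and the stretches within the cluster were chosen after their values were seen. Alternatives covered the smallest overlap, flanks, peak width and number, merging, group medians, scaling, the replicate block and single libraries left out. The other 10 libraries (4 H3K27me3, 4 H3K4me3 and 2 IgG), protein sequences and expression were not analysed here.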

Additional observations from a re-analysis of the deposited data

Results flagged for a closer look

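In a group of 4 libraries, 1 library stood far from the other 3 by Dixon's test at the 95% level in several KRTAP windows; chance flags about 1 in 20 groups, and values that move in steps of 1 kb with 3 libraries tied are flagged whenever the fourth differs. Of the 18 gene groups of 4 whose libraries were not all equal, 11 were flagged in this way. With siSUV420H1, replicate 1 was low for KRTAP1-1 at 3.45 kb, replicate 2 was low for KRTAP17-1 at 1.71 kb and high for KRTAP4-5 at 2.08 kb, and replicate 4 was high for KRTAP2-2 at 4.73 kb, KRTAP4-9 at 1.49 kb and KRTAP4-11 at 0.820 kb. Replicate 4 was also high over the stretch from KRTAP4-7 to KRTAP4-1, with 32 kb against 22 to 23 kb in the other 3. With siNC, replicate 3 was low for KRTAP3-3 at 3.57 kb, replicate 2 was low for KRTAP4-12 at 1.18 kb, replicate 4 was high for KRTAP4-9 at 2.49 kb and KRTAP4-11 at 1.82 kb, and replicate 1 was the only library with KRTAP1-3 covered, at 1.87 kb. Replicate 1 of siNC was also low over the stretch from KRTAP3-3 to KRTAP1-3, at 11.4 kb against 12.6 kb in the others, and had 16 marked KRTAP genes against 15 in each of the others.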

How the results depend on the processing

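In the inhibitor arm, the lost KRTAP genes numbered 9 to 13 with other overlaps, flanks, peak sets or libraries and 7 when a covered start site was required, against 11, and none was gained under any of them. Of all coding genes marked in every DMSO library, 18% were lost. This share was lowest without flanks, at 17.2%, where 9 of 13 KRTAP genes were lost. It was highest with peaks at or above the median width, at 31.9%, where 13 of 16 KRTAP genes were lost. Flanks of 5 kb gave 12 lost KRTAP genes, of which 7 were among the 11, and 23 lower KRTAP genes in place of 14. No KRTAP gene was marked in every library of the arm without flanks or when 1000 bp were required, against KRTAP2-1 alone. The same held with peaks at or above the median width and with an equal number of widest peaks. The mean number of marked genes differed by -17, by -15.3 when 1000 bp were required, by -12 without flanks and by -19.3 with 5 kb flanks. The covered length of the merged windows differed by -58.6 kb, by -9.85 kb without flanks, by -108 kb with 5 kb flanks, by -66.8 kb with peaks within 5 kb merged and by -42.0 kb after scaling to covered Mb. After scaling, 12 genes were lower in place of 14, the groups of KRTAP2-1 and KRTAP1-1 overlapping (-0.186 and -2.75 kb in place of -2.03 and -3.76 kb). Leaving out 1 library gave 11 to 13 lost, 14 to 16 lower and 0 to 1 higher genes, the 1 being KRTAP5-6 without A-196 replicate 2. In the siRNA arm, lost KRTAP genes numbered 5 with 5 kb flanks, 1 with an equal number of widest peaks and 1 by start site, against 3. Of all coding genes marked in every siNC library, 21.4% were lost with 5 kb flanks and 13.8% with an equal number of widest peaks, against 21.5%. The share reached 23.2% without siSUV420H1 replicate 3. Lower KRTAP genes numbered 3 without flanks, 10 with 5 kb flanks, 3 with an equal number of widest peaks and 3 after scaling, against 5. Higher KRTAP genes numbered 6 after scaling, against 0, and windows full in every library of the arm, such as that of KRTAP2-3, counted as higher there by construction. The mean number of marked genes differed by -5.75, by -3.5 without flanks and by -8.25 with 5 kb flanks, and covered length by -18.4 kb, by -2.58 kb without flanks, by -35.5 kb with 5 kb flanks and by -0.50 kb after scaling. Leaving out 1 library gave 3 to 5 lost and 5 to 8 lower genes, the highest of both without siSUV420H1 replicate 4. Scaling moved the split over all coding genes to 768 lower and 508 higher in place of 1093 and 217 with A-196, and to 936 and 1245 in place of 1336 and 413 with siSUV420H1. It also reversed KRTAP1-1 in the siRNA arm, to 1.18 kb, its window being nearly full in both groups. No other called gene changed direction under any alternative run. In the inhibitor arm, though, the differences of KRTAP1-5 and KRTAP4-11 were 0 kb without flanks, and neither they nor KRTAP4-12 then counted as lost. With the replicate block, as without it, 0 coding genes passed adjustment in either arm (smallest adjusted p 0.964 and 0.257), and 0 did so under every other alternative.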
